A study of Homo sapiens with 4 samples.

Results

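AXL and ALK are the 2 receptor tyrosine kinases described here, taken by name. They are 2 of the 2864 genes with values in the copy of the deposited table used here. That copy covers gene names in alphabetical order up to those that start with CAC and may be cut short. Other receptors such as MET, EGFR and PDGFRB, and the AXL ligand GAS6, were therefore not analysed here. RNA was sequenced from 4 cultures of A375, a human melanoma cell line with a mutated BRAF kinase, with 1 library per condition. The conditions were untreated parental cells (A375P), a resistant strain kept continuously in graded concentrations of vemurafenib (A375R), A375 cells given 1‰ of the solvent DMSO for 48 h (A375+DMSO), and A375 cells given 2 μM vemurafenib for 48 h (A375+VEM). Vemurafenib is an inhibitor of mutant BRAF. The genotype was labelled wild type in all 4, and the resistant cells are a single strain. The study set A375R against A375P and A375+VEM against A375+DMSO, to look for factors of lasting resistance and of the acute drug response. No condition was replicated, so no difference between conditions was tested, and no p-value is given.

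Receptor tyrosine kinases span the cell membrane, bind a ligand outside the cell and phosphorylate themselves and adaptor proteins inside it. From there signals run through RAS and RAF to ERK, and through PI3K to AKT, so that an active receptor can restart a pathway that a RAF inhibitor has closed. AXL belongs to the TAM receptors and binds GAS6. In melanoma it is known as a marker of dedifferentiated cells with little MITF, the master transcription factor of pigment cells. ALK is a receptor of the developing nervous system that binds the ligands ALKAL1 and ALKAL2, and shortened or fused forms of it are known as oncogenes. In the coordinates of the authors' table, on build hg19 as named in the submitters' processing notes, AXL is a protein-coding gene on the plus strand of chr19:41725104-41767672 with a length of 4900 bases. ALK is a protein-coding gene on the minus strand of chr2:29415640-30144477 with a length of 6265 bases, and its locus of 728838 bases is far longer than the 42569 bases of AXL.

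The bases just upstream of the first annotated start of each gene are shown because AXL is a known target of YAP/TAZ with TEAD, the factors this study followed, and because the windows of the 2 receptors differed in composition. They are the 250 bases before the RefSeq start, read 5′ to 3′ on the strand of the gene, at chr19:41218973-41219222 on the plus strand for AXL and chr2:29921587-29921836 on the minus strand for ALK (build GRCh38.p14, which is not the build of the authors' table). Capitals mark the GC box GGGCGG on either strand.
AXL: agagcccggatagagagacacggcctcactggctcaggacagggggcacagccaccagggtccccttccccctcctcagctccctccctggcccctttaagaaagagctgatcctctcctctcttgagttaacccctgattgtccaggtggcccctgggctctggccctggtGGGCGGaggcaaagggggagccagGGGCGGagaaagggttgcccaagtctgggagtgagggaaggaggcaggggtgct
ALK: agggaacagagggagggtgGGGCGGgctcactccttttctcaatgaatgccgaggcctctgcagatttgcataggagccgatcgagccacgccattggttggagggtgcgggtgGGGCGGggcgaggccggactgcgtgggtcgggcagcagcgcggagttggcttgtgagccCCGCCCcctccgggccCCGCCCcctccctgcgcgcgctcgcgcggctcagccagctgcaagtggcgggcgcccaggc
The AXL window held 2 GC boxes and the ALK window 4, and 42.6% of 35116 such windows held at least 1. The GC content was 64.4% for AXL and 71.6% for ALK, where the median window had 58.0%. The letters of TEAD (GGAATG, in 11.9% of windows), AP-1 (TGANTCA, in 6.57%) and the MITF boxes (CACGTG, in 6.34%, and CATGTG, in 9.42%) were searched on both strands and matched neither window. None of these motifs overlapped another. RefSeq lists a further start within each gene, and the 250 bases before it held GGAATG and CATGTG once each in AXL and CACGTG once in ALK, counting both strands. A match in letters is not a bound site, and counts per gene do not separate transcripts from different starts.

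AXL RNA was abundant in all 4 libraries and lowest in A375+VEM. The authors counted 27682 reads of AXL in A375P, 14038 in A375+DMSO, 21802 in A375R and 3596 in A375+VEM. As TPM, which divides reads by gene length and scales each library to the same total, the AXL level was 659 in A375P (95% counting interval 651 to 667), 358 in A375+DMSO (352 to 364), 575 in A375R (567 to 582) and 92.4 in A375+VEM (89.4 to 95.5). The intervals of no 2 libraries overlapped, so the order from A375P through A375R and A375+DMSO to A375+VEM was larger than counting error. These intervals are exact Poisson intervals on the reads and cover counting error only, not the spread between cultures. Among 2258 protein-coding genes of the table, AXL ranked 15 by TPM in A375P, 28 in A375+DMSO, 16 in A375R and 179 in A375+VEM.

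ALK RNA was low throughout and highest in A375+VEM. ALK had 86 reads in A375P, 33 in A375+DMSO, 35 in A375R and 115 in A375+VEM. The ALK level was 1.60 TPM in A375P (1.28 to 1.98), 0.659 in A375+DMSO (0.453 to 0.925), 0.722 in A375R (0.503 to 1.00) and 2.31 in A375+VEM (1.91 to 2.77). A375R and A375+DMSO, next to each other at the low end, did not differ beyond counting error, at a TPM ratio of 1.10 with an interval from 0.661 to 1.82. A375+VEM and A375P, at the high end, differed beyond counting error, at a ratio of 1.44 with an interval from 1.08 to 1.93. In A375P 37.6% of the protein-coding genes had a lower TPM than ALK, in A375+DMSO 28.6%, in A375R 31.1% and in A375+VEM 37.2%. By rank, ALK thus stood slightly higher in A375P than in A375+VEM. Per length, AXL RNA was 412 times ALK RNA in A375P, 544 times in A375+DMSO, 796 times in A375R and 40.0 times in A375+VEM.

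**Figure D1:**
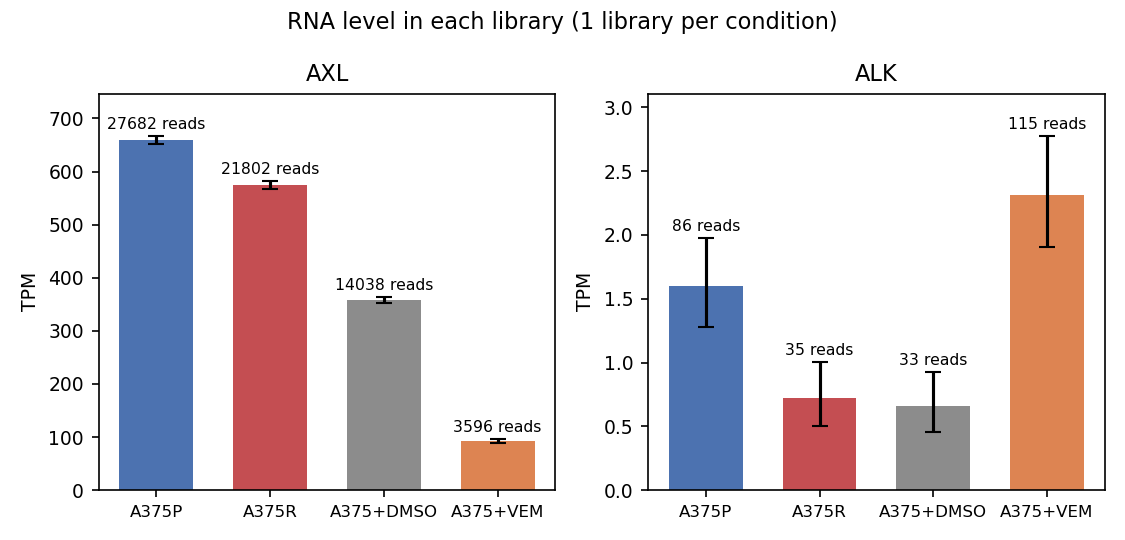
TPM of AXL (left) and ALK (right) in each of the 4 libraries, with the number of reads above each bar and exact 95% Poisson intervals as error bars, which cover counting error only. AXL falls from 659 TPM in A375P to 92.4 in A375+VEM, while ALK is lowest in A375R and A375+DMSO and reaches 2.31 TPM in A375+VEM.

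The 2 receptors differed in opposite directions between A375+VEM and A375+DMSO. With 1 library each, drug and library cannot be told apart. AXL fell from 358 TPM in A375+DMSO to 92.4 in A375+VEM, a ratio of 0.258 with an exact Clopper-Pearson interval on the reads from 0.249 to 0.268, which is a 3.88-fold lower level. ALK rose from 0.659 to 2.31 TPM, 3.51-fold with an interval from 2.36 to 5.34. Both were past 1.5-fold, the threshold of the study, on the scale of (TPM + 0.1) used for every call here, with log2 ratios of -1.95 for AXL and 1.67 for ALK. With a pseudocount of 1 the ALK value shrank to 1.00, still past 1.5-fold. Such a call was common in this pair, since 46.2% of the 1784 genes that reached a TPM of 1 in either library were past it, 26.5% higher and 19.7% lower. AXL lay toward the low end of these genes, with 76 of them at a lower log2 ratio, and ALK toward the high end, with 109 at a higher one. ALK reached a TPM of 1 in A375P and A375+VEM only, so against A375R or A375+DMSO it could only be called higher in these libraries.

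In the resistant strain neither receptor was above the untreated parental cells. The AXL ratio of A375R to A375P was 0.872 (0.856 to 0.888), a log2 ratio of -0.20 that did not reach 1.5-fold, and 563 of 1689 genes had a lower one. ALK was 2.22-fold lower in A375R than in A375P, with an interval from 1.48 to 3.39 and a log2 ratio of -1.05. With a pseudocount of 1 this log2 ratio shrank to -0.60, only just past 1.5-fold. In this pair 44.3% of genes were past 1.5-fold, 26.8% higher and 17.5% lower, and 115 genes had a lower log2 ratio than ALK.

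The libraries without vemurafenib also differed in both receptors, and this sets how A375R reads against each. AXL was 1.84-fold lower in A375+DMSO than in A375P (1.80 to 1.88) and ALK 2.43-fold lower (1.61 to 3.75), in a pair where 45.7% of 1720 genes were past 1.5-fold, 26.8% higher and 18.9% lower. Against A375+DMSO, A375R had 1.60-fold more AXL (1.57 to 1.64), with a log2 ratio of 0.68 that was past 1.5-fold, where 20.5% of 1702 genes were, 10.5% higher and 9.99% lower. With libraries scaled by the reads of the table in place of the TPM, the log2 ratio was 0.58 and no longer past it, and the split was 8.40% higher and 13.4% lower. ALK was below 1 TPM in both of these libraries and had no call. DMSO, culture and library preparation cannot be told apart from each other with 1 library each.

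The fall of AXL in A375+VEM held against all 3 other libraries, whereas the rise of ALK depended on the library it was set against. AXL was 7.13-fold lower in A375+VEM than in A375P (6.89 to 7.39) and 6.22-fold lower than in A375R, at a ratio of 0.161 (0.155 to 0.167). Against A375P 62.1% of genes were past 1.5-fold, 36.9% higher and 25.3% lower, and against A375R 54.7% were, 30.8% higher and 23.9% lower. ALK was 3.20-fold higher in A375+VEM than in A375R (2.18 to 4.82), at a log2 ratio of 1.55, or 0.94 with a pseudocount of 1. Against A375P its log2 ratio was 0.50, short of 1.5-fold. These comparisons share the A375+VEM library and are not independent of each other.

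**Figure D2:**
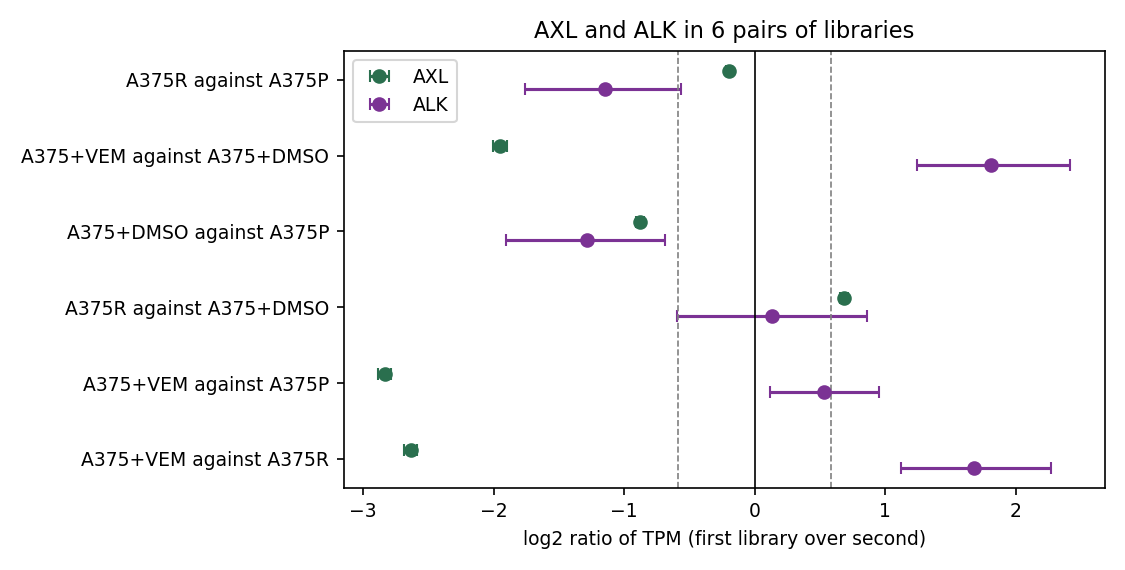
Log2 ratio of TPM for AXL (green) and ALK (purple) in 6 pairs of libraries, with exact 95% Clopper-Pearson intervals on the reads as bars, and dashed lines at 1.5-fold. AXL is to the left of zero wherever A375+VEM is the first library, and the ALK interval for A375R against A375+DMSO, from 0.661 to 1.82 as a ratio, spans no change.

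Other tyrosine kinases in the table were few and differed in direction. Of 6 listed, 3 were tested between A375R and A375P, with 1 lower and none higher, and 4 were tested in the acute pair, which is A375+VEM against A375+DMSO, with 1 higher and 1 lower. Over all genes tested 44.3% and 46.2% were past 1.5-fold in these pairs, so the counts are near that background. ABL2, a cytoplasmic kinase that acts on the actin cytoskeleton, had 24484 reads in A375P, 4708 in A375+DMSO, 9302 in A375R and 3118 in A375+VEM, the same order of libraries as AXL. Its log2 ratio was -1.25 in A375R against A375P, past 1.5-fold, and -0.58 in A375+VEM against A375+DMSO, just short of it. Adjusting to the median gene, or scaling by the reads of the table, put ABL2 past it there too. Scaling by the reads of the table also put AATK past it as lower in A375R than in A375P, for 2 of the 3 tested. AATK reached a TPM of 1 only in A375P of that pair and could be called only as lower, and its ratio of 0.692 had an interval from 0.423 to 1.11. AATK, a kinase found mainly in neurons, had 48 reads in A375P, 124 in A375+DMSO, 30 in A375R and 674 in A375+VEM. Like ALK it was highest in A375+VEM, 5.47-fold above A375+DMSO (4.51 to 6.68). ABL1, the proto-oncogene kinase fused to BCR in leukemia, stayed between 3071 and 3538 reads. The kinases of blood cells were near the floor, with at most 8 reads of BLK and 4 of BTK in any library. BMX, the 1 called lower in the acute pair, reached a TPM of 1 only in A375+DMSO, with 28 reads there and 2 in A375+VEM.

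Of the proteases that cut AXL off the cell surface, ADAM10 was higher in A375+VEM in the acute pair, while AXL RNA was lower. ADAM10 had 43.7 TPM in A375P, 62.6 in A375+DMSO, 65.3 in A375R and 121 in A375+VEM. That is 1.94-fold more in A375+VEM than in A375+DMSO (1.85 to 2.04). ADAM17, the other known sheddase, was at 51.0 TPM in A375+DMSO and 66.2 in A375+VEM, a log2 ratio of 0.38 that did not reach 1.5-fold. Neither passed it in A375R against A375P, at log2 ratios of 0.58 and 0.40. Over all genes tested 26.5% were higher in the acute pair and 26.8% in A375R against A375P. RNA levels do not show how much receptor was cut. The ALK ligands ALKAL1 and ALKAL2 were not found in the table under these names.

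Most of the listed kinases and effectors below the receptors stayed within 1.5-fold in both pairs of the study. Of 8 listed genes, all tested, 1 was higher and none lower in A375+VEM against A375+DMSO, with a median log2 ratio of 0.36 where the median of all genes tested was 0.11. Over all genes tested 26.5% were higher and 19.7% lower in this pair. The gene that rose was BCL2L11, whose product BIM is a death protein that ERK normally marks for degradation. BCL2L11 had 195 reads in A375P, 214 in A375+DMSO, 148 in A375R and 670 in A375+VEM, so the acute library stood above the other 3. The rise from A375+DMSO was 3.15-fold (2.70 to 3.69). BRAF, the drug target, had 20.3 TPM in A375+DMSO and 19.7 in A375+VEM, and ARAF 54.9 in both. In A375R against A375P 1 of the 8 was higher and 1 lower, where 44.3% of all genes tested were past 1.5-fold. BAD, a death protein that AKT phosphorylates, was higher in A375R, at a log2 ratio of 0.68. AKT1S1, an AKT substrate that restrains mTORC1, was lower in A375R, at -1.02. Adjusting each ratio to the median gene took BAD back under 1.5-fold.

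Some genes of the YAP/TAZ program, to which AXL also belongs, were lower in A375+VEM than in A375+DMSO. Targets with names later than CAC were not analysed here. Of 5 listed targets besides AXL, 3 were lower in A375+VEM against A375+DMSO and none higher, with a median log2 ratio of -1.09 against 0.11 over all genes tested, 19.7% of which were lower. ANKRD1, a classical reporter of YAP, had 572 reads in A375P, 574 in A375+DMSO, 480 in A375R and 29 in A375+VEM. Its level in A375+VEM was 0.0509 times that in A375+DMSO (0.0338 to 0.0739). AJUBA, a LIM protein that binds LATS kinases, had 101 TPM in A375P, 64.3 in A375+DMSO, 66.3 in A375R and 16.4 in A375+VEM, and its acute log2 ratio of -1.97 was close to the -1.95 of AXL. AMOTL2, an angiomotin that retains YAP outside the nucleus, was at -1.09. ARHGEF17 and ASAP1 did not pass 1.5-fold, at 0.35 and -0.07. Between A375R and A375P 1 of the 5 passed, AJUBA at -0.61, where 17.5% of all genes tested were lower. The summed TPM of the 5 was 387 in A375P, 285 in A375+DMSO, 336 in A375R and 132 in A375+VEM, and most of it came from AMOTL2 and AJUBA. AMOTL2 had the order of libraries seen for AXL, and so did AJUBA except that A375R and A375+DMSO did not differ beyond counting error, at a ratio of 1.03 (0.976 to 1.09). ARHGEF17 was highest in A375+VEM and ASAP1 in A375R, and ANKRD1 in A375+DMSO and A375P was within counting error, at a ratio of 1.08 (0.956 to 1.21).

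AP-1 factors are known to act on the AXL gene in melanoma. The JUN and FOS members have names later than CAC and were not analysed here, so only ATF and BATF members are described. Of 6 listed, 5 were tested in each pair, and BATF3 alone passed 1.5-fold in either, where 44.3% of all genes tested were past it between A375R and A375P and 46.2% in the acute pair. BATF3, a small partner of JUN, had 31 reads in A375P, 48 in A375+DMSO, 67 in A375R and 12 in A375+VEM. It was higher in A375R than in A375P, at a log2 ratio of 1.24, and lower in A375+VEM than in A375+DMSO, at -1.92. ATF3, a stress-induced factor, was at 0.11 and 0.16 in these pairs.

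Some pigment cell genes linked to MITF, the opposite pole to AXL in melanoma, were higher in A375+VEM in the acute pair. Of 6 listed, 4 had a TPM of 1 or more in both libraries, namely ACP5, APOE, ASAH1 and BCL2A1, and these 4 were higher, with a median log2 ratio of 0.79. Of all genes at that level in both libraries, 23.1% were higher and the median was 0.08. With each ratio adjusted to the median gene, ASAH1 and BCL2A1 remained past 1.5-fold, and with a pseudocount of 1 so did ACP5, ASAH1 and BCL2A1. Between A375+VEM and A375P, however, ASAH1 and BCL2A1 were within 1.5-fold, at log2 ratios of 0.02 and 0.09. ACP5 and APOE were higher in A375+VEM there, at 1.53 and 1.21, where 36.9% of all genes tested were higher. ASAH1, an acid ceramidase controlled by MITF, had 32.4 TPM in A375P, 16.2 in A375+DMSO, 15.9 in A375R and 32.9 in A375+VEM. Like ALK it was low in A375R and A375+DMSO and high in the other libraries. BCL2A1, a survival protein and MITF target, had 62 reads in A375P, 32 in A375+DMSO, 274 in A375R and 61 in A375+VEM, so its peak was in the resistant strain. BIRC7, an inhibitor of apoptosis made in melanoma, had 9 reads in A375+DMSO and 18 in A375+VEM, and its ratio of 2.01 had an interval from 0.859 to 5.09. It reached a TPM of 1 only in A375+VEM and could be called only as higher there. ABCB5, a transporter of melanoma cells, had at most 6 reads. In A375R against A375P 4 of the list were tested, with APOE and BCL2A1 higher and ASAH1 lower, where 26.8% of all genes tested were higher and 17.5% lower. Of the pigment cell markers fixed for this table only these few could be checked, and MLANA, PMEL and MITF itself were not analysed here.

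**Figure D3:**
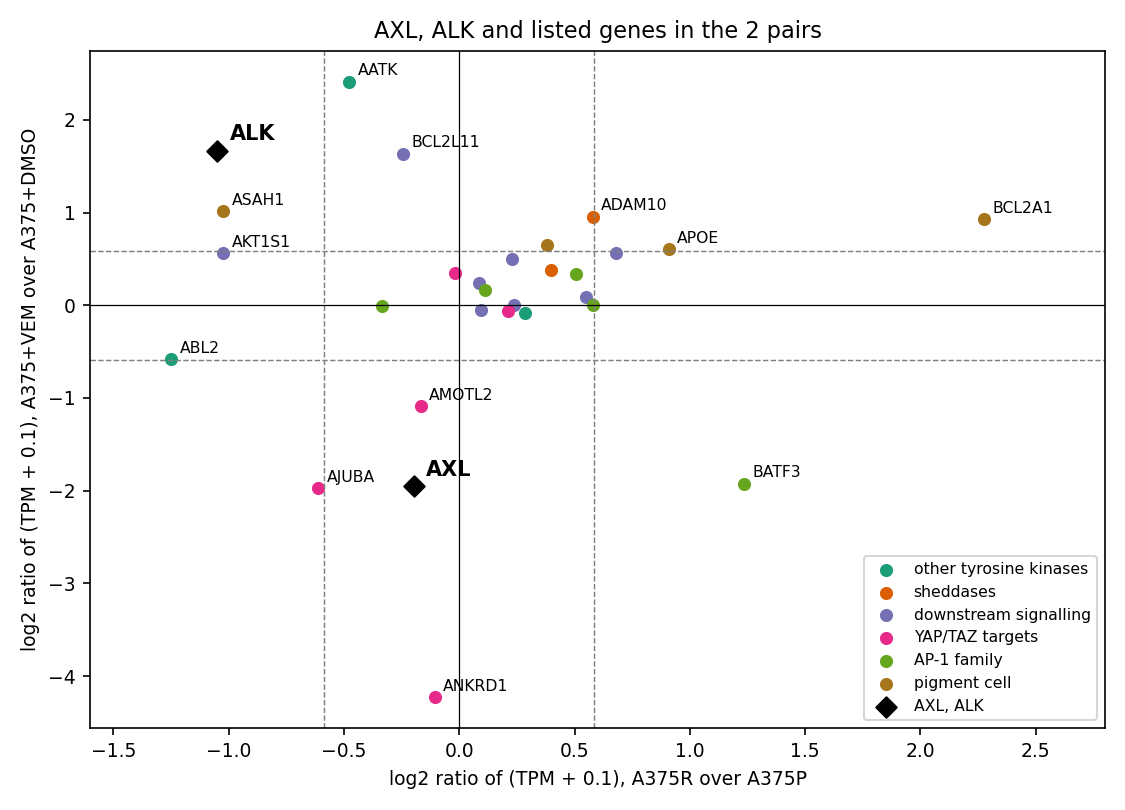
Log2 ratio of (TPM + 0.1) in A375R over A375P (horizontal) against A375+VEM over A375+DMSO (vertical) for AXL and ALK (diamonds) and the listed genes that reached a TPM of 1 in either library of each pair, colored by list, with dashed lines at 1.5-fold. AXL, at -0.20 and -1.95, lies low in the plot with AMOTL2, AJUBA, ANKRD1 and BATF3, and ALK, at -1.05 and 1.67, lies at the upper left.

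Markers of other cell types had few or no reads, apart from ACTA2. The 4 B cell markers summed to at most 19 reads and the 4 macrophage markers to at most 6 in any library, with C1QA at 0 in all of them. ACTA2, the smooth muscle actin that spread melanoma cells can also make, had 92.2 TPM in A375P, 28.3 in A375+DMSO, 35.0 in A375R and 40.1 in A375+VEM. ACTG2, the other actin of smooth muscle, had at most 9 reads. ACTA2 was thus highest in A375P, as AXL was, and its part in the values of AXL was not tested.

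The genes whose course over the 4 libraries was most like that of each receptor were looked up among 1567 protein-coding genes whose TPM averaged 1 or more. Likeness was the largest difference in any library between the log2(TPM + 0.1) of the genes, each minus its own mean. With 4 libraries, close courses may be common, and how many genes lay this close was not counted. Nearest to AXL were C17orf51 at 0.19, BEGAIN at 0.30, C4orf32 at 0.34, ABCA10 at 0.36 and ACER2 at 0.38. C17orf51 had 1874 reads in A375P, 868 in A375+DMSO, 1150 in A375R and 211 in A375+VEM. ACER2, an alkaline ceramidase, had 204, 61, 117 and 21 reads in the same order. All 5 were therefore highest in A375P and lowest in A375+VEM, but AXL was far more abundant than any of them, the highest being C4orf32 at 42.3 TPM in A375P.

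Nearest to ALK were ABCA3 at 0.15, ATP6V0D1 at 0.20, BSN at 0.24, AMIGO3 at 0.25 and AVPR2 at 0.25. ATP6V0D1, a subunit of the proton pump of lysosomes, had 1837 reads in A375P, 842 in A375+DMSO, 752 in A375R and 2023 in A375+VEM. These genes were picked for a course like that of ALK, which rests on 33 to 115 reads, and lend it no support. ABCA3, a lipid transporter, had 360, 125, 162 and 419 reads in the same order, and its rise from A375+DMSO to A375+VEM was 3.38-fold (2.76 to 4.16). BSN, a scaffold protein of nerve endings, had 282, 125, 96 and 388 reads.

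**Figure D4:**
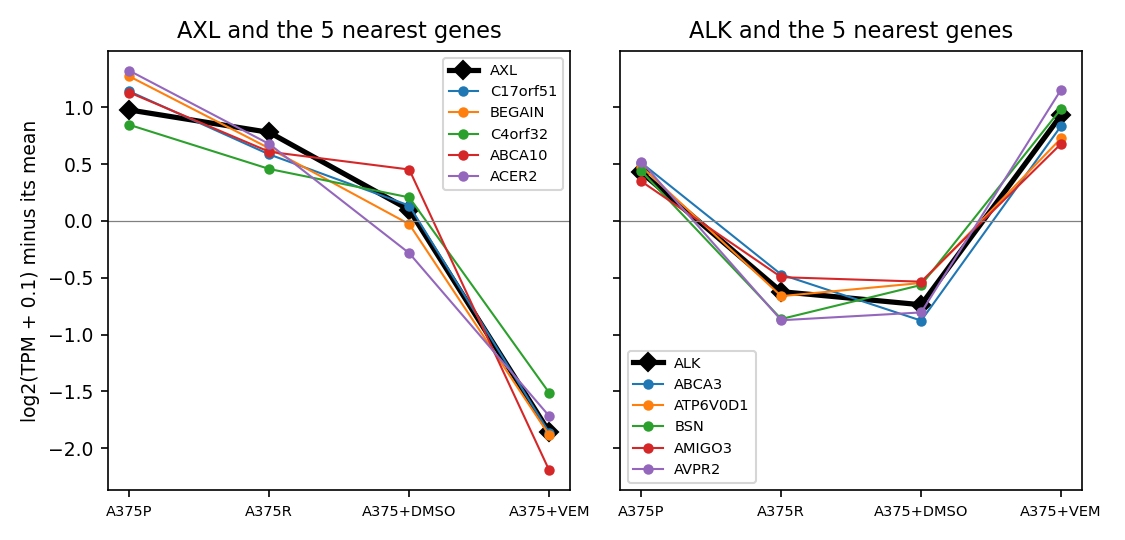
Log2(TPM + 0.1) minus its mean over the 4 libraries for AXL with its 5 nearest genes (left) and ALK with its 5 nearest genes (right); lines only join the values of 1 gene. The AXL group drops most in A375+VEM, and the ALK group is low in A375R and A375+DMSO and high in A375P and A375+VEM.

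Most of the analysed genes near AXL on the chromosome stayed within 1.5-fold in the acute pair. Neighbours with names later than CAC were not analysed here. The table holds 10 genes that start within 1 Mb of AXL, and 9 were tested in the acute pair, with 2 higher, none lower and 7 within 1.5-fold, against 26.5% higher and 19.7% lower over all genes tested. The higher ones were B9D2, a gene of the ciliary base, and B3GNT8, which reached a TPM of 1 only in A375+VEM of that pair, could be called only as higher and had an interval from 0.828 to 6.26. BCKDHA, a subunit of the enzyme that breaks down branched-chain amino acids, starts 136022 bases from AXL and had 36.6 TPM in A375P, 101 in A375+DMSO, 64.3 in A375R and 112 in A375+VEM, the reverse order of AXL. AKT2, the AKT kinase nearest to AXL on the chromosome, starts 933802 bases away and had 64.5 TPM in A375+DMSO and 75.9 in A375+VEM. Near ALK the table holds C2orf71 alone, a gene of photoreceptors that stayed under 1 TPM. In GENCODE 1 antisense gene overlaps AXL and 2 overlap ALK. A further noncoding RNA gene, RN7SL516P, overlaps ALK on the same strand. None of these is in the table under its name. Whether reads were counted by strand is not given in the sources used here, so reads of these antisense genes cannot be told apart from those of the receptors.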

How the data were processed

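The authors deposited 1 table with a whole read count and a TPM per gene for the 4 libraries. The submitters' processing notes name HISAT2, HISAT, TopHat2 and Bowtie2 without roles and the build hg19, and the counting program is not given in the sources used here. In the authors' TPM, reads per base of gene are scaled to the same total in every library. The 2864 genes with values carry between 8.48% and 8.94% of the TPM of a library, and their counts add up to between 1891215 and 2054277 reads, which is a part of the depth. One incomplete row was left out.

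Groups came from the sample labels. In each of 6 pairs, genes that reached a TPM of 1 in either library were called past 1.5-fold on (TPM + 0.1). For genes with few reads the added 0.1 shrinks the ratio. Folds and intervals are ratios of TPM without the 0.1, with 95% Clopper-Pearson bounds on the reads. With 1 library per condition no count model was fitted.

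Named genes were the receptors, members of written gene lists, genes within 1 Mb and the 5 nearest by course. The members and lists were chosen with earlier results of these data known. One gene of a list is not reported here and was left out of its counts. Only the ratio and interval steps were tested on simulated counts, which held counting error alone. The changes set in them were in genes with more reads than ALK has. The tools were scipy 1.17.1, numpy 2.4.6, pandas 2.3.3 and matplotlib 3.10.9 under Python 3.11.15.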

Additional observations from a re-analysis of the deposited data

Results flagged for a closer look

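Some named genes were past 1.5-fold in opposite directions in the study's 2 pairs, each of 1 library against 1. Whether the pairs differ was not tested. All values are log2 ratios of (TPM + 0.1), first for A375R against A375P and then for A375+VEM against A375+DMSO. ALK was at -1.05 and 1.67. ALK, BSN and B3GNT8 reached a TPM of 1 only in A375P of the first pair and only in A375+VEM of the second, so for these the minimum TPM fixed both directions. The 5 genes chosen for a course like that of ALK share its directions by that choice, with ABCA3 at -0.98 and 1.71, ATP6V0D1 at -1.14 and 1.27, BSN at -1.30 and 1.55, AMIGO3 at -0.84 and 1.21, and AVPR2 at -1.40 and 1.96. ASAH1, from the pigment cell list, was at -1.02 and 1.02. B3GNT8, a glycosyltransferase gene that starts 166963 bases from AXL, was at -1.12 and 0.97. The second value rests on 15 reads against 7, with a ratio of 2.16 and an interval from 0.828 to 6.26 that spans no change. BATF3 had the reverse order, at 1.24 and -1.92.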

How the results depend on the processing

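The alternatives for AXL and ALK were pseudocounts of 1 and 0.01, a median ratio of 1 over the genes tested, and scaling by the reads of the table. Over the 6 pairs these gave 48 values, of which 37 lay within the counting interval of the reported ratio and 11 outside it, and none reversed a call. The side of 1.5-fold changed once, for AXL in A375R against A375+DMSO, where scaling by the reads of the table gave 0.58. The median log2 ratio of all genes tested was 0.15 in A375+VEM against A375P and 0.11 against A375+DMSO, and it was at most 0.10 in the other pairs. Set to 0, it moved AXL to -0.97 in A375+DMSO and -0.30 in A375R, both against A375P, and in A375+VEM to -2.06 against A375+DMSO, -2.99 against A375P and -2.73 against A375R. Scaling by the reads of the table gave AXL -0.28 in A375R against A375P and -2.58 in A375+VEM against A375R. A pseudocount of 1 shrank ALK to 1.00 in A375+VEM against A375+DMSO, -0.65 in A375+DMSO against A375P and 0.94 in A375+VEM against A375R. In A375R against A375P it gave ALK -0.60, within the counting interval of the reported ratio and only just past 1.5-fold. In A375R against A375P, A375+VEM against A375+DMSO, A375+DMSO against A375P, A375R against A375+DMSO and A375+VEM against A375R, the share of genes past the threshold was 43.2%, 44.8%, 44.2%, 28.6% and 51.2% with no minimum TPM, over 2864 genes each, which raised the numbers to 1237, 1282, 1266, 818 and 1467 genes from 748, 825, 786, 349 and 969. At 2-fold, stricter by construction, the shares were 22.2%, 26.4%, 26.0%, 8.64% and 34.4%. With a TPM of 5 required, 15.4% passed in A375R against A375+DMSO, or 207 genes. The alternatives for the gene lists were chosen after seeing the data. No paired analysis was possible because each condition has 1 library, and for the same reason no library could be left out. Low reads limit ALK, and 1 culture per condition limits both receptors.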
